A study of Mus musculus with 8 samples.

Results

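The 47 genes described here encode the machinery of DNA replication and its supply of nucleotides. They were taken from a fixed list: 9 genes of origin recognition and helicase loading, 12 of the replicative helicase, the 2 subunits of the kinase that fires origins, 9 of the polymerases and primase, 6 of the sliding clamp and its loader, 5 of single-strand binding and lagging strand processing, and 4 of nucleotide supply. All 47 were found among the 21536 protein-coding genes of the RefSeq table for GRCm38.p6 that could be given a strand. Polymerase II was mapped over them by CUT&Tag, in which an antibody brings a transposase to chromatin so that DNA near the target is cut and tagged. The cells were MEL, a transformed mouse line of the erythroid lineage. One antibody read Rpb1 phosphorylated on serine 5 of its repeated tail (Ser5P), and the other read serine 2 (Ser2P). Each was used on a dCAS control line and on a Myrlin KD line, a knockdown of Myrlin, the RNA made at an enhancer that lies 81 kb upstream of the Myb gene. Each of the 4 combinations had 2 libraries. The labels do not say how the knockdown was made, whether a line is 1 clone or how replicate cultures were kept apart. The p-values below therefore measure library-to-library spread alone, and that spread may be technical.

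Before S phase the origin recognition complex, Cdc6 and Cdt1 load the Mcm helicase onto DNA, and geminin blocks Cdt1 once replication has begun. The Cdc7 kinase, Cdc45 and the GINS complex then switch the helicase on, primase starts each strand, the clamp loader places PCNA, and the polymerases copy the template with nucleotides made by ribonucleotide reductase, thymidylate synthase and thymidine kinase. Many of these genes are classic targets of E2F factors, which switch them on late in G1, and a dividing line such as MEL needs them all. Ser5P is placed on polymerase as it leaves the promoter, whereas Ser2P builds up as it travels through the gene.

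The deposited data are peak lists, 1 per library, holding 20793 to 32125 peaks. Relative depth, read from the background under the peaks, was 0.566 and 0.640 in the Ser5P controls and 0.6504 and 0.8432 in the Ser5P KD libraries. The Ser2P controls were at 0.782 and 0.44 and the Ser2P KD libraries at 1.12 and 1.03, so KD was deeper for both antibodies. Median peak widths were larger in both KD libraries of each antibody (532 to 533.5 bp against 486 and 497 bp for Ser5P, and 478 and 479 bp against 428 and 381 bp for Ser2P). Ser2P control 2 stood apart as the shallowest library. Of 12 erythroid markers, 7 carried promoter Ser5P in all 4 libraries, and Gata1, Alas2, Ank1 and Lmo2 carried both marks inside the gene in all 8. Slc4a1, the anion exchanger of late erythroid cells, had a gene peak in only 1 library of each antibody. Of 18 lymphoid, myeloid and non-haematopoietic markers, 0 had promoter Ser5P in all 4 libraries. Col1a1 had a promoter peak in 3 libraries of each antibody, however, and Cd79a had promoter Ser2P in 2. Cd79a, Csf1r, Col1a1 and Cdh1 carried both marks in the gene window in all 8, Mpo in 3 of each antibody and Pax5 in 2 of each. Values below are base pairs of a window lying under peaks, in the order control 1, control 2, KD 1, KD 2. The promoter window spans 1000 bp each side of the outer 5′ end of a gene. The gene window runs from 1000 bp inside that end to 3000 bp past the 3′ end.

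Promoter sequences were at hand for 39 of the 47 genes, from RefSeq on GRCm38.p6, each covering 250 bases before to 50 bases after an annotated start. An E2F-type word (TTTCGCGC, TTTGGCGC, TTCCCGCC or TTTCCCGC, read on both strands) lay in at least 1 promoter of 20 of the 39 (51.3%), against 5.2% of all 17492 genes with a sequence. Per promoter, 4.52% of all 21263 sequences held one. These words overlap each other: TTCCCGCC and TTTCCCGC share bases in Mcm3, Pold1 and Pold3, and TTTCGCGC and TTTGGCGC do so in Mcm5 and Mcm6. GGGCGG, the GC box, was present for 30 of 39 (76.9%, against 49.2%), and CCAAT for 23 (59.0%, against 42.3%). TTTGAA, the cell cycle homology region, was found for 7 (17.9%, against 18.5%), and TATAAA for 3 (7.69%, against 14.8%). The median GC content was 61.3% over the members' 48 promoters and 56.3% over all promoters and the part of GC content in the word counts was not tested. A match describes letters in a window and is not a binding site.

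**Figure D1:**
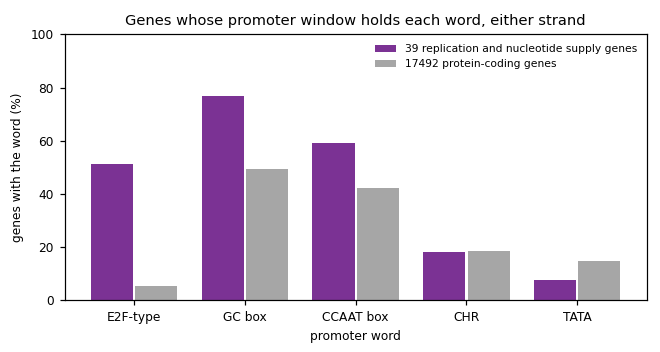
Share of genes (%, vertical axis) whose promoter sequence holds each word on either strand, for the 39 members with a sequence and for all 17492 genes with one. The E2F-type bar stands at 51.3% in the members and at 5.2% in all genes, while the TTTGAA word (CHR) is at 17.9% and 18.5%.

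Sequences of Mcm3, Mcm6, Orc1, Rfc4 and Lig1 are printed as examples from the 20 members with an E2F-type word, not chosen by a fixed rule. They run 5′ to 3′ in the direction of the gene. E2F-type words and CCAAT boxes (or their complements GGCGGGAA, GCGCGAAA, GCGCCAAA, GCGGGAAA and ATTGG) are in capitals. Mcm3 (chr1:20820263-20820562, minus strand) holds 3 E2F-type matches from 18 to 45 bases past its start and 3 CCAAT boxes upstream. Positions count from the start base, which is 0. In Mcm6 (chr1:128359656-128359955, minus strand) a pair of overlapping matches lies 110 to 99 bases before the start and another 47 to 40 bases before it. Orc1 (chr4:108579204-108579503, plus strand) has 1 match, 27 to 20 bases before an annotated start that lies 3749 bp inside the outer 5′ end. Rfc4 (chr16:23127681-23127980, minus strand) has 1, 10 to 17 bases past its start. Lig1 is shown at its outer start (chr7:13276925-13277224, plus strand), which holds no E2F-type or CCAAT word, and at its second start (chr7:13278576-13278875, plus strand), which holds 1.
Mcm3: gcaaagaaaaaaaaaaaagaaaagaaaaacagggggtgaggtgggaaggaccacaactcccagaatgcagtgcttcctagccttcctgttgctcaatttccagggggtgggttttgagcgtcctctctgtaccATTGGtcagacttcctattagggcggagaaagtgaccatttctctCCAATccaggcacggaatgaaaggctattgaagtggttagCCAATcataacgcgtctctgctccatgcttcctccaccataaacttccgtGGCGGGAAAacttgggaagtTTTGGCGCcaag
Mcm6: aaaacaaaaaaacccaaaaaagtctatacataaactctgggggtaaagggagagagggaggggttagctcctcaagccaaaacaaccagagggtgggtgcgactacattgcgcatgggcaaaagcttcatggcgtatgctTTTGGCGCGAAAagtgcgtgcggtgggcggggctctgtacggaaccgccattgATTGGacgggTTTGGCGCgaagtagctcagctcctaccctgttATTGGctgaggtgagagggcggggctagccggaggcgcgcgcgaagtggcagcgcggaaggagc
Orc1: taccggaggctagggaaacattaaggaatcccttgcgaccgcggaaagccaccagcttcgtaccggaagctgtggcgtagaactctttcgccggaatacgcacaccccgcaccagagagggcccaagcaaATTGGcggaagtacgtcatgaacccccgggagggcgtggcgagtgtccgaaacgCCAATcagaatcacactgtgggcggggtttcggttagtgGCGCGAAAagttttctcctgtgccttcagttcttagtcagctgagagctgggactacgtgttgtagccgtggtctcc
Rfc4: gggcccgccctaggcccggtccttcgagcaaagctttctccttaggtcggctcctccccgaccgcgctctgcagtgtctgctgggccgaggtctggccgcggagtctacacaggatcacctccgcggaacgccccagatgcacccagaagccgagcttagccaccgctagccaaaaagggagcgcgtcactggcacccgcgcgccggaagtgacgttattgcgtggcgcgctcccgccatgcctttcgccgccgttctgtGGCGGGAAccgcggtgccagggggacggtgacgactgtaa
Lig1 outer start: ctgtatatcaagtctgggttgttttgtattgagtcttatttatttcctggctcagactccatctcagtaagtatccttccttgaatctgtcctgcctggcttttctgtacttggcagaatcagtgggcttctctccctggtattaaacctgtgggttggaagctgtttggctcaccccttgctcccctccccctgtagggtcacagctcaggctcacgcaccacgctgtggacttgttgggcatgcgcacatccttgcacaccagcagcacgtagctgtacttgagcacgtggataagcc
Lig1 second start: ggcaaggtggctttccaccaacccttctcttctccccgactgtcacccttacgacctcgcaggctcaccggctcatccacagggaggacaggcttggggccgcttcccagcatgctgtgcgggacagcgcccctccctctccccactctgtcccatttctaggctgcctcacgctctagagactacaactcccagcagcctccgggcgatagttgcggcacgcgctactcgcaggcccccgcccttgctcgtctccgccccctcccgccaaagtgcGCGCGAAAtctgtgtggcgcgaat

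Phosphorylated polymerase stood at the start of nearly every replication gene. Ser5P covered part of the promoter window in all 4 libraries at 42 of the 47 genes (89.4%), against 37.7% of all genes. For Ser2P the number was 39 (83.0%), against 36.3% of all genes, and the same number carried both marks in all 8 libraries (34.5% of all genes). The median coverage of the Ser5P-marked members was 807.5 bp, beside 776.5 bp for all 8111 genes marked in the same way. No member was control-only, that is marked in both controls and neither KD library, for promoter Ser5P (0.446% of all genes) or promoter Ser2P (0.2%). None was KD-only, the reverse, for Ser5P (0.409%) or for Ser2P (1.1%). Mcm2, Rfc3 and Tyms lacked promoter Ser2P in 1 library each. Rfc3, a small clamp loader subunit, had 0, 203, 333 and 579 bp, and Tyms, thymidylate synthase, had 580, 0, 762 and 801 bp. Leaving out Ser2P control 1 made Tk1 control-only (beside 0.501% of all genes) and Mcm2 and Tyms KD-only (beside 4.63%) for promoter Ser2P. Leaving out Ser2P control 2 made Rfc3 KD-only (beside 1.53%).

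**Figure D2:**
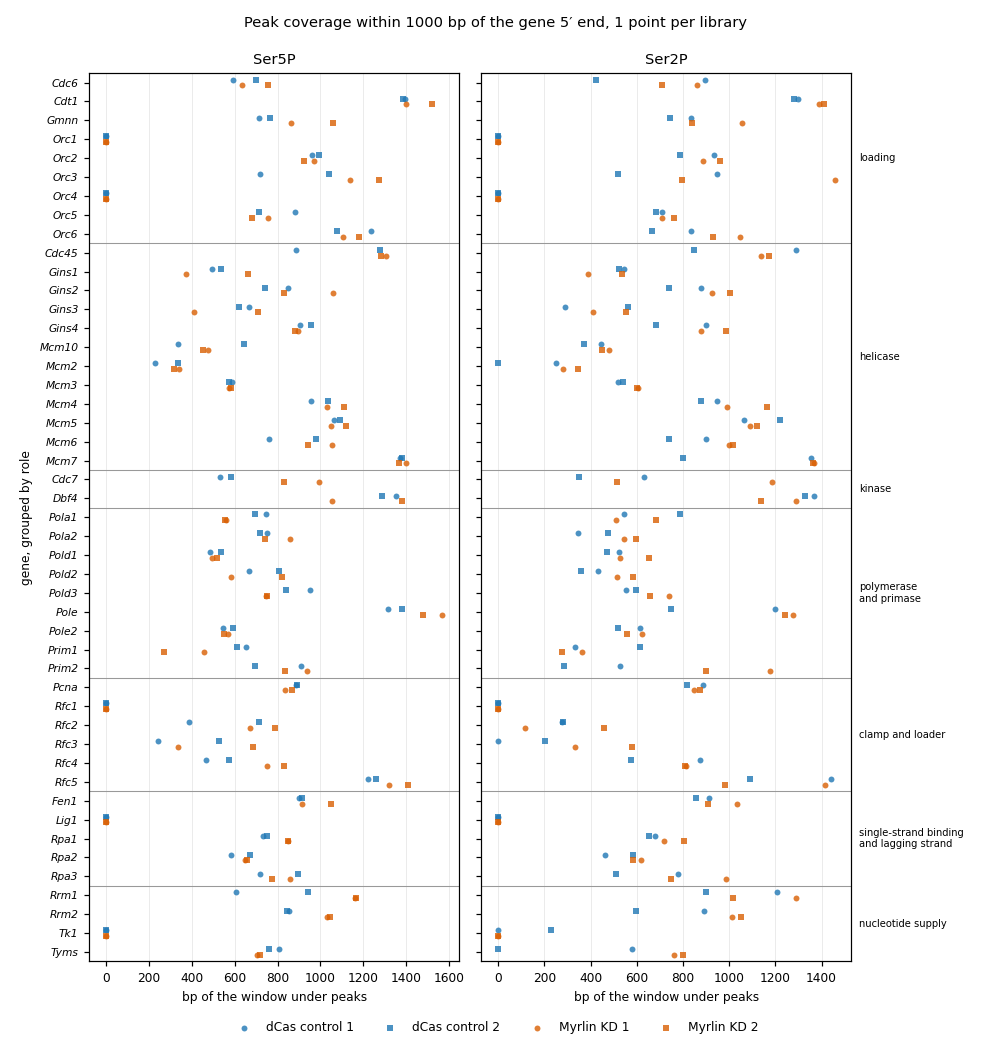
Base pairs of the promoter window under peaks (horizontal axis) for each of the 47 genes (vertical axis, grouped by role), 1 point per library, Ser5P at the left and Ser2P at the right. Circles and squares are replicates 1 and 2, blue is the dCAS control and orange is Myrlin KD. Orc1, Orc4, Rfc1 and Lig1 sit at 0 in all 8 libraries. Within each mark alone, the points of both lines overlap for most other genes, by a small margin for Ser2P.

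Of the 5 genes without promoter Ser5P throughout, 4 had their peak at another annotated start. Orc1, Orc4, Rfc1 and Lig1 had no peak within 1000 bp of their outer 5′ end in any library (8.51%, against 52.0% of all genes). Each carried a peak in all 8 libraries at another annotated start, 2576 to 3367 bp inside the gene for Rfc1, the large subunit of the clamp loader, and 1087 to 2041 bp inside for Lig1, which seals Okazaki fragments. At Lig1 the peak spans the second start, printed above with its E2F-type match, and covered 842, 797, 820 and 844 bp for Ser5P and 727, 845, 810 and 809 bp for Ser2P. At Orc1, an ATPase subunit of the origin recognition complex, it covered 879, 872, 1021 and 1022 bp for Ser5P and 981, 1011, 874 and 1037 bp for Ser2P. The peaks at Orc1, Orc4 and Lig1 also lay at the starts of Prpf38a, Mbd5 and Zswim9, which run the other way, and peaks carry no strand. With the starts of the promoter table in place of the outer ends, 46 of 47 members had Ser5P in all 4 libraries (39.9% of all genes) and 43 had Ser2P (38.5%).

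Tk1, the thymidine kinase of the salvage pathway, was the 1 member without Ser5P at any start used. Its promoter carried a Ser2P peak of 228 bp in control 2 alone, with a fold over background of 2.56 as the authors gave it. A separate peak 1165 to 1794 bp inside Tk1, near the start of the opposite gene Afmid, was present in 7 of 8 libraries. There Ser5P covered 330, 450, 0 and 334 bp and Ser2P 329, 255, 630 and 383 bp.

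Peaks at promoters were centred close to the start. The median summit over 43 members lay 27 bp downstream of the outer 5′ end, and 40 of the 43 lay within 300 bp of it. Rfc2, another loader subunit, was farthest out. The strongest summit of each library lay at a median of 1242 bp inside the gene, with a range of 65 to 2072 bp over the 8 libraries. In all, 169 separate peak sites fell on the members. Of these, 45 lay at promoters, 39 of them in all 8 libraries, and 4 at other annotated starts, all in all 8. Inside genes away from a start the picture was sparse: 61 of 103 sites were seen in 1 library only, and 5 in all 8. A further 17 sites lay past a 3′ end.

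A head-to-head neighbour was common. Another gene on the opposite strand began within 1000 bp of the 5′ end of 13 of 47 members (27.7%), against 10.8% of all genes. Among genes with promoter Ser5P in all 4 libraries the shares were closer, 12 of 42 (28.6%) against 23.9%. The pairs were Mcm4 with Prkdc, Mcm7 with Ap4m1, Orc3 with Rars2, Orc6 with Vps35, Cdc45 with Ufd1, Dbf4 with Slc25a40, Pole with Pxmp2, Pole2 with Klhdc1, Pcna with Cds2, Rpa1 with Smyd4, Rpa3 with Umad1, Fen1 with Tmem258 and Tk1 with Afmid. Median Ser5P coverage was 1033.5 bp over these 13 members and 699.25 bp over the other 34. Polymerase of the 2 genes of a pair cannot be told apart in these peaks.

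Among the loading genes, Cdt1, which brings the Mcm ring to the origin complex, had the widest promoter coverage, with 1394, 1384, 1399 and 1522 bp of Ser5P. Orc6, a small subunit of the origin complex, had 1235, 1075, 1105 and 1178 bp of Ser5P but 833, 667, 1047 and 928 bp of Ser2P, so every Ser5P library lay above every Ser2P library. Orc3, another subunit, had 717, 1041, 1137 and 1274 bp of Ser5P and 946, 519, 1456 and 796 bp of Ser2P. Both KD libraries of Orc3 exceeded both controls for Ser5P only. Of all genes with promoter Ser5P in all 4 libraries, 27.9% showed higher Ser5P of this kind and 10.7% the reverse. Orc4, with its internal start, had the largest median Ser2P gene window of this group, from 1053, 575, 1660 and 1415 bp, and Gmnn, or geminin, and Orc6 had no peak of either mark in the gene window. Over Orc2, Orc5, Cdc6 and Gmnn, the median promoter Ser5P ran from 666.5 bp at Cdc6 to 964.0 bp at Orc2.

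In the helicase, the 6 ring subunits differed widely. Mcm7 led with 1370, 1378, 1399 and 1367 bp of promoter Ser5P, and its Ser2P was 1354, 798, 1367 and 1362 bp, low only in the shallow control 2. Mcm4 had 957, 1036, 1031 and 1112 bp of Ser5P and 946, 876, 989 and 1163 bp of Ser2P. Mcm2 was the weakest, with 229, 338, 342 and 318 bp of Ser5P and 250, 0, 281 and 345 bp of Ser2P. Folds at the Mcm2 promoter ran from 2.71 to 2.98 as the authors gave them, over a background pileup whose median was 11.9 fragments, while Mcm3 reached 6.84 to 10.1 over 2.29. The Mcm2 peak thus stood on a higher local background than that of Mcm3. Cdc45, which joins the ring at activation, had 887, 1277, 1305 and 1282 bp of Ser5P and 1290, 846, 1139 and 1171 bp of Ser2P. Both KD libraries of Cdc45 were above both controls for Ser5P, and the groups overlapped for Ser2P. Among the other 8 helicase genes, median promoter Ser5P ran from 465.5 bp at Mcm10 to 1077.5 bp at Mcm5, and all 8 carried both marks in every library.

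The 2 subunits of the origin-firing kinase differed in coverage. Dbf4, the regulatory subunit, had 1350, 1288, 1054 and 1378 bp of promoter Ser5P and 1368, 1330, 1290 and 1136 bp of Ser2P, and was the 1 member marked in all 4 libraries whose Ser2P was lower in both KD libraries than in both controls. Cdc7, the catalytic subunit, had 532, 582, 994 and 831 bp of Ser5P, with both KD libraries above both controls. Gene-window Ser2P was scarce over both genes, at 0, 190, 228 and 0 bp for Cdc7 and 475, 0, 0 and 0 bp for Dbf4.

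Of the polymerase genes, Pole, the catalytic subunit of the leading strand enzyme, was covered most widely, with 1316, 1381, 1568 and 1480 bp of Ser5P and 1200, 747, 1275 and 1241 bp of Ser2P at the promoter. Its partner Pole2 had 546, 592, 569 and 549 bp of Ser5P and 613, 519, 622 and 559 bp of Ser2P. Pold1, the catalytic subunit of polymerase delta, was lowest by median at 487, 536, 495 and 518 bp of Ser5P. Prim2, the large primase subunit, had the largest Ser2P gene window of all 47 genes, 1563, 1481, 2660 and 1842 bp. Sites 44.6 and 94.9 kb inside Prim2 carried both marks in all 8 libraries. No Ser2P peak lay in the gene window of Prim1, the small primase subunit, or Pold2. Pola1, the catalytic subunit of polymerase alpha, spread its Ser2P over 11 small sites inside the gene, of which 1 was shared by all 4 Ser2P libraries, and summed to 1570, 751, 1603 and 1003 bp. Each of these exceeded the Ser5P of Pola1 in that window (0, 345, 0 and 0 bp), which no other member matched (2.13%, against 1.2% of all genes). Over Pola1, Pola2, Prim1, Prim2, Pold2 and Pold3, median promoter Ser5P ran from 532.5 bp at Prim1 to 872.0 bp at Prim2.

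In the clamp group, Pcna had narrowly spread promoter coverage of 888, 890, 836 and 865 bp for Ser5P and 888, 817, 848 and 873 bp for Ser2P. Both KD libraries of Pcna were below both controls for Ser5P, and the groups overlapped for Ser2P. Rfc5, a loader subunit, was widest at 1222, 1260, 1318 and 1408 bp of Ser5P. Rfc4, another loader subunit, had 468, 574, 753 and 829 bp of promoter Ser5P, higher in both KD libraries, and 872, 573, 813 and 808 bp of Ser2P, where the groups overlapped. The gene lies at chr16:23113948-23127730 on the minus strand. Its gene window held 1065, 1092, 1631 and 1404 bp of Ser5P and 652, 322, 2258 and 1963 bp of Ser2P. Both KD libraries were above both controls for each mark in that window. The 3′ end of Rfc4 overlaps that of Eif4a2, a translation initiation factor gene on the other strand, and the peaks 12.5 to 13.7 kb inside Rfc4 adjoin it. Rfc1 had 1368, 1667, 1171 and 1642 bp of gene-window Ser2P, part of it at its internal start.

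Among single-strand binding and lagging strand genes, Fen1, the flap nuclease, had 901, 913, 913 and 1048 bp of promoter Ser5P and 913, 856, 1033 and 906 bp of Ser2P. Rpa3, the small subunit of replication protein A, had 716, 896, 856 and 774 bp of Ser5P and 777, 509, 988 and 747 bp of Ser2P, with no gene-window peak in any library. Rpa1, the large subunit, had 734, 751, 850 and 850 bp of Ser5P and 678, 652, 716 and 805 bp of Ser2P. Coverage of the Rpa1 promoter was higher in both KD libraries than in both controls for each mark. Rpa2, the middle subunit, had a median of 653.5 bp of promoter Ser5P. Lig1 had the largest Ser2P gene window of the group, 1312, 845, 1073 and 1144 bp, which includes its second start.

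For nucleotide supply, Rrm1 and Rrm2, the large and small subunits of ribonucleotide reductase, had 604, 942, 1159 and 1166 bp and 855, 842, 1030 and 1045 bp of promoter Ser5P. Both KD libraries lay above both controls for each gene. Rrm1 had no gene-window peak in any of the 8 libraries. Tyms had 805, 761, 703 and 719 bp of promoter Ser5P, with both KD libraries below both controls. It had the largest gene window of the group for Ser2P, 1570, 277, 1614 and 1789 bp.

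Within genes, the marks were less uniform. Ser2P covered part of the gene window in all 4 libraries at 20 members (42.6%), against 26.4% of all genes, and Ser5P at 15 (31.9%), against 25.5%. The 13 members with both marks in all 8 libraries (27.7%, against 21.9%) were Mcm7, Orc1, Orc4, Cdc6, Cdt1, Prim2, Rfc1, Rfc2, Rfc4, Lig1, Fen1, Tyms and Tk1. For Orc1, Orc4, Rfc1 and Lig1 this window includes the internal start, and for Mcm7, Rfc2 and Fen1 a promoter peak that reaches past 1000 bp. Gene windows of 20 members overlap another protein-coding gene, and 6 contain its start. Cdc6 carried an internal peak 9.51 to 10.4 kb from its start in all 8 libraries, with 819, 782, 615 and 734 bp of Ser5P. Past the 3′ end of Cdt1 a broad peak, also in all 8, lay near the start of the neighbouring gene Aprt. Mcm3, Orc6, Gins3, Gins4, Gmnn, Pold2, Rpa3 and Rrm1 had no gene-window peak of either mark (17.0%, against 47.2% of all genes).

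**Figure D3:**
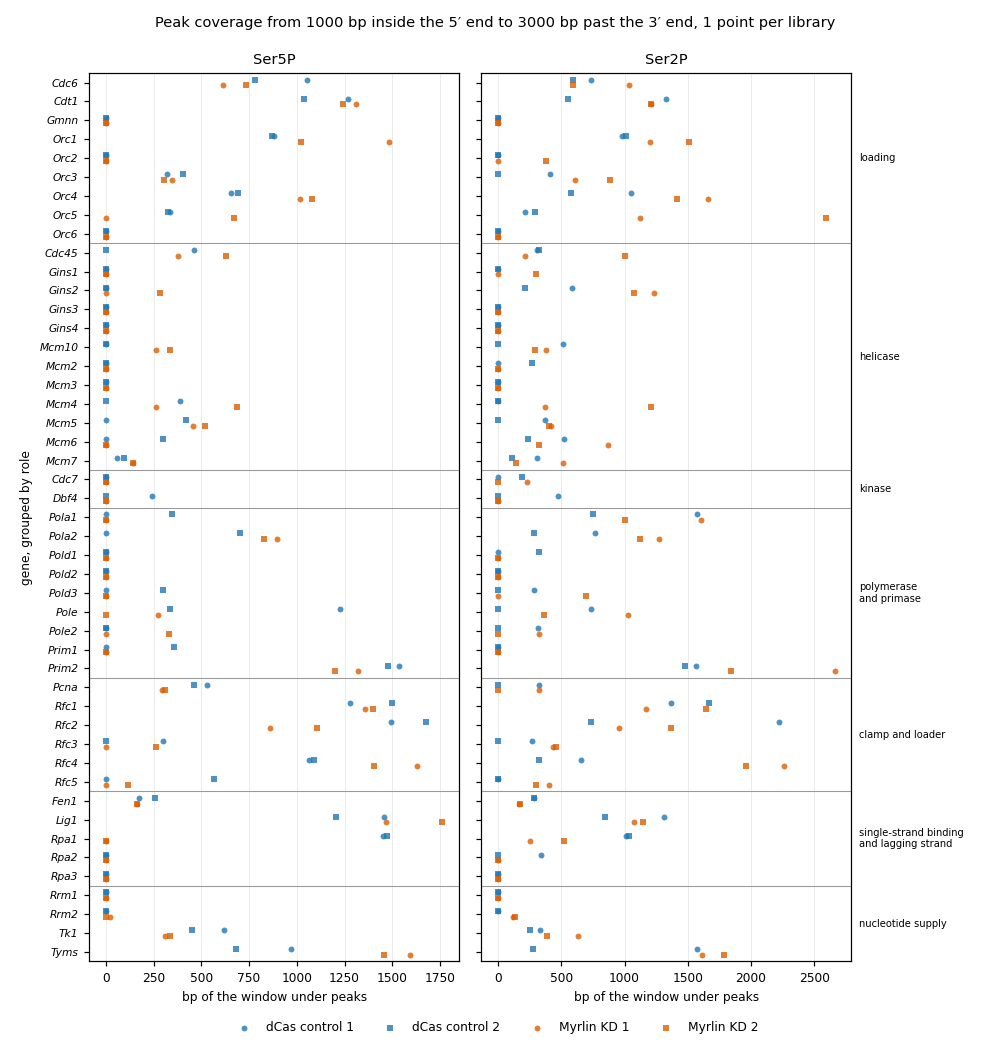
Base pairs of the gene window under peaks (horizontal axis) for each of the 47 genes (vertical axis, grouped by role), 1 point per library, with Ser5P at the left and Ser2P at the right and the same symbols as for promoters. Prim2 reaches 2660 bp of Ser2P in KD 1, Rpa1 shows Ser5P in the controls alone, and 8 genes stay at 0 throughout.

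The comparison of Myrlin KD with control asks whether polymerase over these genes differs when the enhancer RNA is reduced. For each mark taken alone, most members did not separate the lines at promoters, but the members that did differed between the marks. Among the 42 with promoter Ser5P throughout, both KD libraries exceeded both controls at 11 (26.2%) and lay below them at 6 (14.3%), beside 27.9% and 10.7% of all genes so marked. The 11 were Orc3, Cdt1, Cdc45, Cdc7, Gmnn, Pole, Rfc4, Rfc5, Rpa1, Rrm1 and Rrm2. The 6 were Gins4, Pola1, Prim1, Pold3, Pcna and Tyms. For promoter Ser2P the counts were 17 of 39 (43.6%) above and Dbf4 alone (2.56%) below, beside 50.4% and 2.03%. Gene-window Ser2P was above at 9 of 20 and below at 2 of 20, Rpa1 and Fen1 (10.0%), beside 42.1% and 3.05%. For gene-window Ser5P 6 of 15 were above and 6 below, beside 19.1% and 17.3%. The shares of gene-window Ser5P in both directions, and of gene-window Ser2P below the controls, were above the background, on 15 genes and on 2 of 20 genes. Wider peaks and greater depth moved with the KD line for both antibodies, and their part in these counts was not tested.

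In limma on covered shares, with Benjamini-Hochberg adjustment over all genes tested, 0 members and 0 genes passed an adjusted p of 0.05 for KD against control in any of the 4 antibody and window combinations (0.0% called). At an unadjusted p under 0.05, promoter Ser5P was higher for Cdc7, Rfc4, Rrm1 and Rrm2 and lower for Prim1 (5 of 42 members tested, beside 7.34% and 2.24% of all genes), and gene-window Ser2P was higher for Gins2, Rfc4, Rfc5 and Rrm2 (4 of 32, beside 10.7%). At the same limit promoter Ser2P was higher for Prim2 (1 of 42, beside 15.5%). Gene-window Ser5P was higher for Mcm10, Rfc4 and Tyms and lower for Pcna, Rfc2 and Rpa1 (6 of 25, beside 4.75% and 4.97%). Genes were tested when at least 2 libraries had a peak. Mcm10 and Rpa1 for Ser5P, and Rfc5 and Rrm2 for Ser2P, met this in the gene window through 1 line only. Their p-values are thus no separate support for a difference between the lines. Gene-window Ser2P of Rfc4 was 10.3 percentage points higher in KD (SE 1.60, limma adjusted p = 0.197). An exact permutation of 2 libraries against 2 has a smallest two-sided p of 0.333.

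Presence and absence of gene-window peaks gave 5 calls. For Ser2P, Mcm4, Rfc5 and Rrm2 were KD-only (6.38%, against 2.25% of all genes) and no member was control-only (0.548% of all genes). For Ser5P, Rpa1 was control-only (2.13%, against 1.44%) and Mcm10, which helps to activate the helicase, was KD-only (2.13%, against 1.08%). Mcm4 had 0, 0, 372 and 1208 bp of Ser2P, of which 372 and 864 bp lay 1943 to 2806 bp past its 3′ end, where Ser5P was present in control 1 as well (390, 0, 263 and 686 bp). Rfc5 had 0, 0, 401 and 303 bp, partly the edge of its promoter peak. Rrm2 had 0, 0, 120 and 133 bp, from a peak 2868 bp past its 3′ end that only grazes the window. Mcm10 had 0, 0, 263 and 334 bp of Ser5P, from a different site in each KD library.

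The KD libraries were deeper than the controls for both marks. When the recovered summit pileups were thinned to the shallowest library of the antibody, which does not repeat the peak calling, Mcm4 kept its call in 4 of 20 draws, Rfc5 in 5, Rrm2 in 8 and Mcm10 in 13. Without Ser2P control 1 there were 8 KD-only members in place of 3, where 8.18% of all genes were KD-only, and without Ser2P KD 1 there were 5, beside 4.39%. Leaving out Ser2P control 1 or control 2 gave 2 control-only members in place of 0, beside 1.38% and 2.83% of all genes. For Ser5P, 2 members were control-only without control 2, KD 1 or KD 2 (2.68% to 3.88% of all genes) and 5 without control 1 (3.8%). KD-only members for Ser5P numbered 2 without KD 2 and 3 without each of the others, beside 2.0% to 3.67% of all genes.

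The call of Rpa1 was the one that held in every setting tried. The gene lies at chr11:75300259-75348454 on the minus strand. Its gene window held 1453 and 1473 bp of Ser5P in the controls and 0 in both KD libraries, and 1011, 1037, 254 and 523 bp of Ser2P. A site 34.0 to 34.7 kb inside the gene (chr11:75313745-75314478) carried 610 and 545 bp of Ser5P and 475 and 734 bp of Ser2P in the 4 control libraries and none in the 4 KD libraries. Another, 11.0 to 11.7 kb inside (chr11:75336712-75337415), carried 509 and 602 bp of Ser5P in the controls, 218 bp of Ser2P in control 1, and nothing in KD. One more, 24.7 to 25.1 kb inside, kept Ser2P in all 4 libraries with 318, 303, 254 and 290 bp. The Rpa1 promoter was marked throughout, and both KD libraries there were above the controls. These sites were singled out after their values were seen, so they are a description. The Ser5P call of Rpa1 was made in 20 of 20 thinned draws, with a −log10 q of at least 5, at equal list length, with at least 200 bp covered and without any 1 library. Apart from leaving out a library, these settings can only take marks away, and the KD libraries had none here. They could end the call only through the controls, and thinning left Ser5P control 1, the shallowest, as it was. Whether this call depends on depth was thus not tested by thinning. In limma its Ser5P gene-window share was 2.92 percentage points lower in KD (SE 0.330, adjusted p = 0.164), so it did not pass across all genes.

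**Figure D4:**
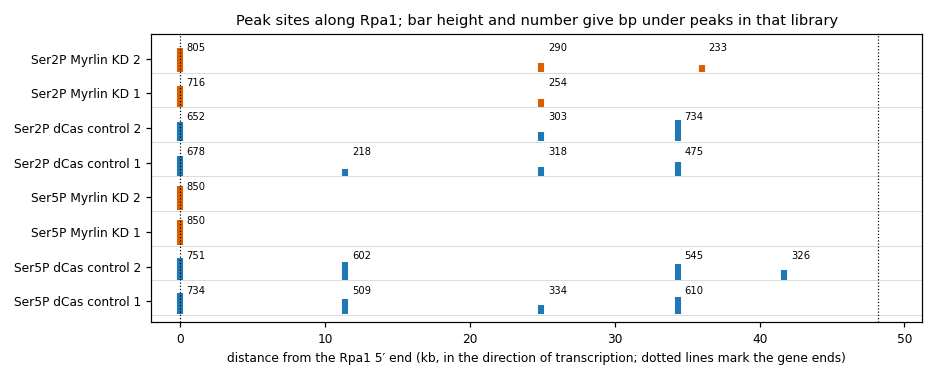
Peak sites along Rpa1 by distance from its 5′ end (kb, horizontal axis) in each of the 8 libraries (vertical axis). Bar height and number give the base pairs under peaks, blue for the dCAS control and orange for Myrlin KD, and the site at 34 kb appears in the 4 control libraries only.

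Peak height was examined as well, since covered length says little about how much signal lies under a peak. The number of fragments at the summit of the strongest promoter peak was recovered from the deposited fold and p, and its log2 value was centred on the median promoter of each library. Scaling by background instead moved the median KD minus control difference of all promoters by -0.20 for Ser5P and -0.23 for Ser2P, and the median Ser5P minus Ser2P difference by 0.36, so all values here are relative to the median promoter. This measure was added after the data were seen. Of 42 members tested for Ser5P and 39 for Ser2P, only Rfc4 passed limma at an adjusted p of 0.05 for KD against control. All promoters passed at 3.03% higher and 2.38% lower for Ser5P, and at 0.896% and 0.717% for Ser2P. Rfc4 summits held 30, 40, 54 and 61 fragments of Ser5P and 35, 17, 78 and 55 of Ser2P, both KD libraries above both controls each time. The log2 difference was 0.63 for Ser5P (SE 0.19, limma adjusted p = 0.0258) and 0.78 for Ser2P (SE 0.20, adjusted p = 0.0317).

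The call for Rfc4 rested on every library. Leaving out any 1 gave an adjusted p of 0.0520 to 0.338 for Ser5P and 0.0569 to 0.902 for Ser2P, and background scaling gave 0.17 and 0.0958. With the replicate number as a block the Ser2P call was lost as well (adjusted p = 0.0571), while Ser5P passed (adjusted p = 0.0220). The authors' own folds at this peak did not separate the lines, with 7.32, 8.63, 7.86 and 7.67 for Ser5P and 8.08, 6.27, 8.55 and 7.20 for Ser2P. The local background at the same peak was also higher in KD, at 3.24 and 3.75 fragments in the Ser5P controls and 5.999 and 7.08 in KD. With background scaling other members passed in place of Rfc4: Pold1 for Ser5P, at -0.60, and Mcm10, Gins2 and Cdt1 for Ser2P, at -0.65, -0.33 and -0.51. Under that scaling 7.87% of all promoters passed as lower in KD for Ser5P and 5.67% for Ser2P. Without Ser2P control 2, Mcm4 passed at 0.53 and Mcm10 at -0.67.

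Summit pileup was also compared between the antibodies. Over the 39 members with a promoter peak in every library, 17 passed limma for summit pileup of Ser5P against Ser2P with the line as a covariate: 8 relatively higher in Ser5P (20.5%, against 17.4% of all promoters) and 9 relatively higher in Ser2P (23.1%, against 16.4%). Both shares were near those of promoters in general. Gins2, a subunit of the GINS complex, leaned most to Ser2P, with 151, 167, 158 and 177 fragments of Ser5P and 374, 216, 434 and 398 of Ser2P. Its log2 difference, Ser5P minus Ser2P, was -1.19 (SE 0.067, limma adjusted p = 4.74e-20), and no Ser5P library reached the lowest Ser2P one. Limma pools the spread over promoters of like height, so such a p can be far smaller than 8 libraries alone could give. Gene-window Ser2P of Gins2 was 581, 213, 1229 and 1073 bp beside 0, 0, 0 and 283 bp of Ser5P.

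Mcm10 followed at -0.88 (SE 0.14), Rrm1 at -0.76 (SE 0.12), Mcm6 at -0.73 (SE 0.093) and Gins4, another GINS subunit, at -0.57 (SE 0.11). Rfc5, Dbf4, Orc3 and Cdc6 lay between -0.54 and -0.37. At the other end, Pcna stood at 0.72 (SE 0.10, limma adjusted p = 1.24e-07), with 100, 117, 114 and 152 fragments of Ser5P and 66, 35, 92 and 95 of Ser2P, so that every Ser5P library exceeded every Ser2P one. Gmnn followed at 0.53 (SE 0.12), and Pola2, Orc6, Mcm7, Mcm5, Mcm4 and Cdc45 lay between 0.47 and 0.37. Mcm6 summits held 93, 87, 80 and 119 fragments of Ser5P and 145, 85, 190 and 181 of Ser2P, where only the shallow Ser2P control 2 reached down into the Ser5P range. Gmnn summits held 73, 75, 84 and 108 fragments of Ser5P and 52, 39, 62 and 66 of Ser2P, with no overlap. The ring subunits thus fell on both sides, Mcm6 towards Ser2P and Mcm4, Mcm5 and Mcm7 towards Ser5P. Mcm4, Mcm7, Orc6, Cdc45, Pcna, Orc3 and Dbf4 share their start with an opposite gene, so their values cannot be given to 1 gene of the pair.

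**Figure D5:**
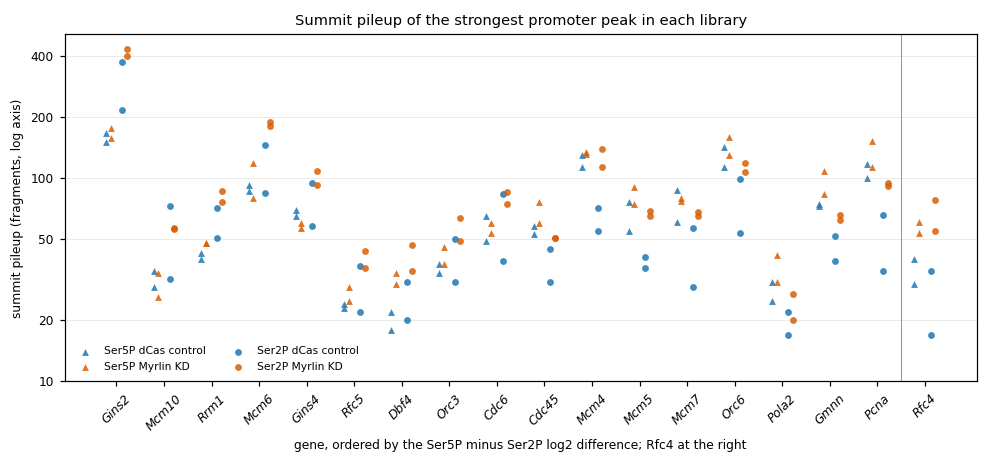
Fragments at the summit of the strongest promoter peak (log axis) in each library, triangles for Ser5P and circles for Ser2P, blue for the dCAS control and orange for Myrlin KD. Genes run from Gins2, where Ser2P reaches 434 against at most 177 for Ser5P, to Pcna, where Ser5P runs from 100 to 152 against 35 to 95, and Rfc4 stands at the right.

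Of these 17 calls, 9 held in each of the 10 alternatives tried (leaving out each library, background scaling and the replicate block): Mcm4, Mcm7, Orc6, Gmnn and Pcna towards Ser5P and Mcm6, Mcm10, Gins2 and Rrm1 towards Ser2P. No sign turned, but background scaling moved the median difference by 0.36, close to the size of the Orc3 and Cdc6 differences (-0.39 and -0.37). Gins4, Rfc5, Dbf4, Orc3 and Cdc6 did not pass under it. With background scaling 22 members passed as higher in Ser5P and 4 as higher in Ser2P, beside 51.1% and 4.36% of all promoters under that scaling. In covered share, 0 members passed limma for Ser5P against Ser2P at promoters (0.693% and 0.153% of all genes higher in Ser5P and Ser2P) or in gene windows (0.0602% and 0.0%). At an unadjusted p under 0.05, 6 members were higher in Ser5P at promoters and 0 in Ser2P (9.35% and 3.59% of all genes). In gene windows Pcna was higher in Ser5P (4.13% of all genes), and Mcm6, Gins2, Pola1 and Rrm2 were higher in Ser2P (7.34%). Without Ser2P control 2, Gins2 passed in the gene window at -8.54 percentage points, Ser5P minus Ser2P (SE 1.22, limma adjusted p = 0.0439). Promoter coverage of Orc6, Pola2, Pold3 and Pole was higher in every Ser5P than in every Ser2P library (8.51% of members, against 2.41% of all genes), by 187.25 to 320.5 bp on average, and no member showed the reverse (0.39% of all genes). Higher Ser5P of this kind needs promoter Ser5P in all 4 libraries, which 89.4% of members and 37.7% of all genes had. An exact permutation test of 4 libraries against 4 can go no lower than 0.0286 (two-sided). Complete separation always gives that value, so for these 4 of the 47 members it only restates the separation.

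Other genes of the pathway were counted in the same windows. Of 31 further replication factors, 28 carried promoter Ser5P in all 4 libraries and 9 gene-window Ser2P, beside 37.7% and 26.4% of all genes. In that list Atad5 and Rnaseh2b were KD-only for gene-window Ser2P (beside 2.25% of all genes). Dna2, a nuclease of lagging strand synthesis, was control-only for gene-window Ser5P (beside 1.44%). Also in that list Topbp1 was KD-only for promoter Ser2P (beside 1.1% of all genes), and Chtf8 and Rnaseh2b for gene-window Ser5P (beside 1.08%). Of 14 further nucleotide supply genes, 12 carried promoter Ser5P throughout, with no member called in either direction for any of the 4 measures. Of 19 E2F, RB and MuvB genes, which encode regulators of S phase transcription, 14 did, and 10 carried gene-window Ser2P in all 4 libraries. Mybl2, a Myb relative that acts with the MuvB complex, was control-only for gene-window Ser5P (beside 1.44% of all genes). Tfdp1, an E2F partner, was KD-only for promoter Ser2P (beside 1.1%).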

How the data were processed

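Polymerase II carrying Ser5P or Ser2P was profiled by CUT&Tag in 8 libraries of MEL cells, 2 per antibody and line. The authors deposited 1 peak list per library. The submitters' processing notes name MACS2 2.2.7.1, Bowtie2 2.3.5, Picard 2.21.4, SAMtools 1.9, cutadapt 2.7, deepTools 3.3.1 and the build GRCm38/mm10. The sources used here do not give the peak settings or any control library. Each deposited peak has a fold over the local background of its library, a −log10 p and a −log10 q, and a display score made from that q, all as the authors' MACS2 wrote them.

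Gene ends came from the RefSeq table of GRCm38.p6. Strand came from the RefSeq promoter table for 39 members and from GENCODE vM1 for 8. A window was marked when a peak covered at least 1 bp of it. Summit pileup and background were solved from the fold and p, and a whole number was recovered for at least 99.9% of peaks (tolerance 0.001 in −log10 p). The covered share of each window was tested with limma 3.58.1 (trended, R 4.3.3) over all genes with a peak in at least 2 libraries, with Benjamini-Hochberg adjustment over all of them. This code was tested on simulated data. Counts, medians and motifs used Python 3.11.15 with pandas 2.3.3, numpy 2.4.6 and scipy 1.17.1, and figures matplotlib 3.10.9.

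The members and lists were chosen with earlier results of these data known. Per-library values are given for members called in 1 line only, members lacking promoter Ser5P, the highest and lowest medians of each role and members with a neighbouring start, with others added after their values were seen. Summit pileups and the starts of the promoter table were also added after the data were seen. The settings varied were a stricter −log10 q (5 or more), lists of equal length, thinning in 20 draws, at least 200 bp covered, other window sizes, each library left out and the replicate number as a block. Peaks on other sequences (24 to 30 per library) were left out.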

Additional observations from a re-analysis of the deposited data

Results flagged for a closer look

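For 4 members the lines differed in opposite directions for the 2 antibodies, with both Myrlin KD libraries below both controls for Ser5P and above both for Ser2P. They are named because they show this, at 2 promoters and 2 gene windows (4.26% of members each), beside 1.94% of all genes at promoters and 1.98% in gene windows. Windows without a peak in any library cannot show it, and they count in these shares. They made up 52.0% of all genes at promoters and 47.2% in gene windows, but 8.51% and 17.0% of members. At the Pold3 promoter the KD minus control difference was -146.0 bp for Ser5P and 121.5 bp for Ser2P, a gap of -267.5 bp (limma interaction adjusted p = 0.552). At the Tyms promoter it was -72.0 and 491.5 bp, a gap of -563.5 bp (limma interaction adjusted p = 0.586), with Ser2P control 2 at 0. In the Prim2 gene window it was -244.5 and 729.0 bp, a gap of -973.5 bp (limma interaction adjusted p = 0.761). In the Tk1 gene window it was -214.0 and 214.5 bp, a gap of -428.5 bp (limma interaction adjusted p = 0.548). None of the 4 passed the test of the difference, and the greater depth of the KD libraries moved with it and its part was not tested.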

How the results depend on the processing

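Of the counts that answer a comparison, 144 values under an alternative stayed within 1.5 times the first count and 40 did not. With a −log10 q of at least 5, the members with Ser2P in the gene window in all 4 libraries numbered 10 in place of 20. KD-only members numbered 5 in place of 3 (Orc5, Gins2, Rfc4, Rrm2 and Tk1), beside 2.02% of all genes. For Ser5P there were 2 KD-only members in place of 1, beside 0.803%. For promoter Ser2P this setting gave 1 control-only member (Prim1, beside 0.107% of all genes) and 1 KD-only (Mcm2, beside 1.37%). At equal list length the counts for gene-window Ser2P were 13 throughout, 1 control-only and 1 KD-only (1.11% and 1.39% of all genes in 1 line only). There was 1 KD-only member for promoter Ser2P (0.97% of all genes) and there were 3 for gene-window Ser5P (1.33%). Asking for 200 bp made Fen1 the 1 control-only member for gene-window Ser2P, beside 0.562% of all genes. Thinning left 1 KD-only member there, as did the window without extension past the 3′ end. The cause was not tested where the setting does not itself remove peaks.

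Leaving out 1 library gave 0 to 2 control-only and 3 to 8 KD-only members for gene-window Ser2P, 0 to 1 and 0 to 2 for promoter Ser2P, and 2 to 5 and 2 to 3 for gene-window Ser5P. It gave 0 to 1 members for the gene-window antibody test. For summit pileup it gave 0 to 0 members for Ser5P and 0 to 2 for Ser2P in the test of the lines, and 13 to 17 for the antibodies. Background scaling gave 3 members for Ser2P between the lines and 26 between the antibodies.

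Replicate numbers were shared between lines, but the labels name no shared batch and there are 2 pairs per antibody. The correlation of deviations between libraries with the same number was 0.043 for Ser5P promoters and 0.107 for Ser2P gene windows. With the replicate block, covered share gave 0 members as before, and summit pileup gave 1 for Ser5P, 0 in place of 1 for Ser2P (Rfc4 was lost) and 17 between antibodies. With 2 libraries a group, covered lengths from separately called peaks and the shallow Ser2P control 2, differences of small size between the lines were not detectable.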
